A study of Mus musculus with 14 samples.

Results

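The genes followed here across all 14 libraries of the series have no classical role in endoderm formation: Pla2g7, Phlda1, Emp2, Fcgr3, Lcp1, AW112010, Syn2, Psca, Eps8l2 and Pygl, which are 10 of the 24054 genes in the deposited tables. They were picked because their level was strongly higher in d2-FVFp than in d2-FVFn cells, with no numeric threshold, so that difference is described here without a test. The day 0 and day 3 libraries played no part in the choice. The libraries were made by low-input RNA sequencing from mouse embryonic stem cells and cells derived from them, with 2 libraries in each of d0con, d0ko, d2-FVFn and d2-FVFp and 3 in each of d3con and d3ko.

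The con cells carry Foxa2-Venus-KO on 1 allele (Foxa2-Venus-KO/+) and the ko cells on both, where a nuclear Venus reporter stands in place of the Foxa2 coding region. Each genotype was represented by 2 clones of IDG3.2 cells, so that genotype and clone cannot be told apart. The d0 cells were sorted away from red-fluorescent embryonic fibroblasts after a day without LIF. The d3 cells were sorted as Venus-positive after 3 days on Wnt3a-secreting feeders with 12 ng/ml Activin A, so the d3ko cells are those that had switched on the Foxa2 locus without being able to make the protein. The d2 cells came from another line (T119), in which doxycycline induces a lentiviral Foxa2-Venus fusion through a transactivator driven by the EF1a promoter. They were grown on gelatin with LIF and serum, were given doxycycline at 40 ng/ml over 48 hours and were then divided into Venus-negative (d2-FVFn) and Venus-positive (d2-FVFp) cells, so both had the drug. Reads of the transgene and of the endogenous Foxa2 cannot be told apart.

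Foxa2 is a forkhead transcription factor that can bind nucleosomal DNA and helps to open chromatin in the endoderm lineage. In definitive endoderm it acts with partners such as Sox17 and Gata factors, and its targets there include other transcription factors and secreted proteins. The 10 genes were picked as having no classical role in that programme. They encode cell-surface proteins (Fcgr3, Psca, Emp2), proteins that bind actin (Lcp1, Eps8l2), enzymes (Pla2g7, Pygl), a response gene of growth factor signalling (Phlda1), a synaptic vesicle protein (Syn2) and an RNA known from inflammatory responses (AW112010).

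Library totals ran from 14142788 to 27278237 expected counts, the estimated reads per gene given by RSEM. Levels are given as TPM, the share of transcripts that come from a gene on a common scale, which corrects for gene length and library total. A pair of libraries, d3con replicate 1 and d3ko replicate 1, had 75-base reads, and the rest had 50-base reads. Foxa2 itself had 0.13 and 0.14 TPM in d0con, 0.07 and 0.11 in d0ko, 58.64, 34.81 and 54.47 in d3con and 0.11, 0.15 and 0.19 in d3ko. In the doxycycline series it had 2.99 and 2.01 TPM in d2-FVFn and 168.57 and 159.81 in d2-FVFp. The level of Foxa2 in d2-FVFp was thus above that of every d3con library, and Foxa2 matched the label of every library. Summed TPM of 12 fibroblast markers was 70.5 to 320.1 in d3con and 148.0 to 378.7 in d3ko, against 13.4 to 16.3 in d0con, 40.1 to 141.2 in d0ko and 4.95 to 7.81 in the doxycycline series. Fibroblast marker transcripts were thus higher in the d3 libraries of both genotypes than in d0con. Mesoderm also expresses some of these genes, and the part of fibroblast RNA in the day 3 levels was not tested. In bulk RNA of this kind, a change in the share of cells that express a gene and a change in RNA per cell cannot be told apart.

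The promoters of 3 of the genes are shown: Fcgr3 and AW112010, whose windows hold a forkhead form and which were at or near 0 TPM in d2-FVFn, and Lcp1, whose windows hold none and which also differed between d3con and d3ko. The window runs from 250 bases before to 50 bases after the RefSeq start site on GRCm38.p6, 5′ to 3′ on the strand of the gene. Capitals mark letters of the forkhead forms TGTTTAC, of its variant with one base changed, TATTTAC, and of a further variant, TGTTTGC, searched on both strands. Fcgr3 and Lcp1 each have a pair of annotated start sites. Both are given for Lcp1. For Fcgr3 the first is given, and the window of the second, chr1:171059345-171059644, overlaps with it. Both Fcgr3 windows lie within the annotated span of the gene. The windows are chr1:171059354-171059653 on the minus strand for Fcgr3, chr19:11050517-11050816 on the minus strand for AW112010, and chr14:75130873-75131172 and chr14:75136175-75136474 on the plus strand for Lcp1.
Fcgr3: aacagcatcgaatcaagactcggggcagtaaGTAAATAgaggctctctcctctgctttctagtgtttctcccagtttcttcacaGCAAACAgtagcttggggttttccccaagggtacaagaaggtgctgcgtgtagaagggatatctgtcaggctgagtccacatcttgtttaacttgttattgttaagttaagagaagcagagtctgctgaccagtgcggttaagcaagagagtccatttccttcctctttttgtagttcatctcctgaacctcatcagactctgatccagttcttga
AW112010: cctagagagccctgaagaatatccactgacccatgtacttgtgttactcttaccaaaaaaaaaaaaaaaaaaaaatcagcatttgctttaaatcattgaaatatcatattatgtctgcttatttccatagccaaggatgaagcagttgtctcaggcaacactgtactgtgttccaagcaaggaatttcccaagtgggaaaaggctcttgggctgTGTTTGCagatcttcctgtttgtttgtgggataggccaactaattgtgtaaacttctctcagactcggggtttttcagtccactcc
Lcp1 (first start site): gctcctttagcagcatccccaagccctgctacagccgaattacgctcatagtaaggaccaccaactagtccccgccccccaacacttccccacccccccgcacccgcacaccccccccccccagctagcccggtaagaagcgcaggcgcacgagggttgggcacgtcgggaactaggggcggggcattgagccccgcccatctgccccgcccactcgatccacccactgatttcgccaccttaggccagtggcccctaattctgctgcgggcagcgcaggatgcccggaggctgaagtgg
Lcp1 (second start site): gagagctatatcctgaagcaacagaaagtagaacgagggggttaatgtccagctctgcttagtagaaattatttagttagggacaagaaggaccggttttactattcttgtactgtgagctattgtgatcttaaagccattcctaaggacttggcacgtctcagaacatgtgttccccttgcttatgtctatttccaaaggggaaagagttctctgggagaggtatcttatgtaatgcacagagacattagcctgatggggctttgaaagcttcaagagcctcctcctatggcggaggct

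In the printed Fcgr3 window the reverse complement of TATTTAC starts at position -219 and that of TGTTTGC at position -166 from the start site. From the second start site these positions are -228 and -175. In the AW112010 window TGTTTGC starts at position -36. Of the 8 genes with a promoter in the table, 2 held any of the forkhead forms (Fcgr3 and AW112010), while 11.2% of all 32851 promoter windows did. None of the 8 held TGANTCA, the AP1 form, which 7.81% of all windows hold. A match of 7 letters is a description of the sequence and not a binding site. The genes differed in base composition as well: the AW112010 and Fcgr3 windows were 40% and 45% G and C and the second Lcp1 window 44.3%, whereas those of Eps8l2, Pygl and the first Lcp1 start site were 69%, 67% and 66.3%, beside a median of 52.7% over all windows.

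All 10 genes had both d2-FVFp libraries above both d2-FVFn libraries, as the choice required. By edgeR 6.96% of the 12943 genes tested there were called higher. Of the 13071 genes with a mean of at least 1 TPM in either group, 34.8% had non-overlapping libraries in that direction. Ranked by log2 fold change the genes stood between position 2 (AW112010) and position 147 (Eps8l2) of 12943, where the ranks of AW112010, Syn2 and Psca depend on the small count that the fit adds to zeros. Some had few or no counts in d2-FVFn, and others were already expressed there.

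Fcgr3, Psca and Emp2 encode cell-surface proteins. Fcgr3, the low-affinity receptor for IgG of macrophages and natural killer cells, had 0.26 and 0.07 TPM in d2-FVFn and 29.76 and 41.88 TPM in d2-FVFp. The lower group rests on 3 and 1 counts. The ratio of CPM (counts scaled to a common library total), 236, is therefore a rough value. Psca, a lipid-anchored protein of the Ly6 family, was at 0 in both d2-FVFn libraries and at 13.43 and 30.07 TPM in d2-FVFp, at least 56.2-fold higher when each d2-FVFn library is set to a floor of 3 counts. Emp2, a tetraspan membrane protein linked to integrin trafficking, went from 1.61 and 2.23 TPM to 51.54 and 59.09 TPM, a 28.8-fold ratio of mean TPM. Relative to their level, the 2 d2-FVFp libraries differed from each other more for Psca than for Emp2.

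Of the actin-binding genes, Eps8l2 was expressed in every group. It had 11.47 and 11.65 TPM in d2-FVFn and 117.56 and 165.13 TPM in d2-FVFp, a 12.2-fold ratio. Lcp1, or L-plastin, bundles actin filaments and is best known from blood cells. It had 2.78 and 2.10 TPM in d2-FVFn and 34.88 and 50.56 TPM in d2-FVFp, a 17.5-fold ratio. Eps8l2 was thus the higher of the pair in both groups, and Lcp1 the one with the larger ratio.

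Both enzymes were low in d2-FVFn. Pla2g7, the secreted hydrolase that inactivates platelet-activating factor, had 3.36 and 2.88 TPM in d2-FVFn and 110.24 and 144.93 TPM in d2-FVFp, a 40.9-fold ratio. Pygl, the liver form of glycogen phosphorylase, had 0.90 and 0.68 TPM in d2-FVFn and 16.26 and 14.99 TPM in d2-FVFp, a 19.8-fold ratio. By mean TPM Pla2g7 ranked above 93.4% and Pygl above 72.1% of all genes in d2-FVFp.

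Phlda1, which encodes a protein with a pleckstrin homology-like domain and responds to growth factor signals, had 7.31 and 6.84 TPM in d2-FVFn and 92.62 and 94.51 TPM in d2-FVFp, a 13.2-fold ratio. AW112010 and Syn2 had no count at all in d2-FVFn. AW112010, annotated as a long non-coding RNA, reached 63.55 and 121.46 TPM in d2-FVFp, at least 215-fold above the floor of 3 counts per library. Syn2, a phosphoprotein of synaptic vesicles, reached 4.91 and 5.42 TPM, at least 58.7-fold above that floor. Syn2 was the lowest of the 10 genes in d2-FVFp and Eps8l2 the highest by mean TPM.

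**Figure D1:**
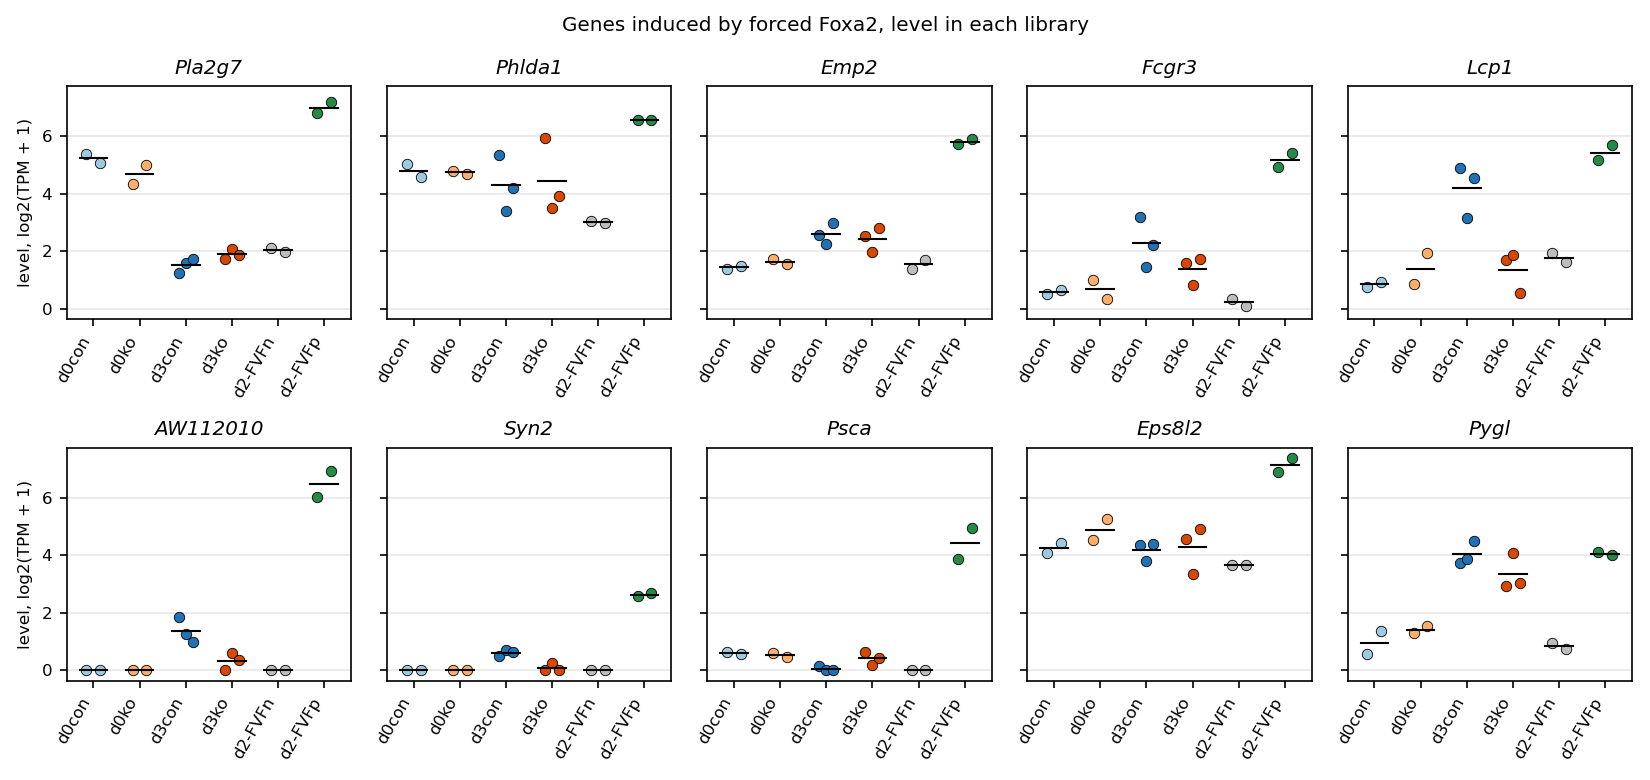
Level of each of the 10 genes as log2(TPM + 1) on the vertical axis, in the 6 groups; each point is a library and each line the group mean of the log2 values. The 2 d2-FVFp libraries lie above all other libraries for every gene except Pygl, for which d3con libraries reach the same height; Pla2g7, Phlda1 and Eps8l2 are also expressed at day 0, and AW112010 and Syn2 are at 0 in d0con, d0ko and d2-FVFn.

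By edgeR, the close relatives of the 10 genes that were called higher in d2-FVFp were 3 genes of the Ly6 family. Of the 10 genes, all but AW112010 belong to families, and 8 of these families, those other than Ly6, hold 42 other listed genes. Of the 27 of them that passed the filter on low counts, edgeR called 0 higher and 2 lower in d2-FVFp. A call needs an adjusted p under 0.05 and a log2 fold change past 1 in either direction. Over all genes edgeR called 6.96% higher, so 0 of 27 is near that share and is no result about these relatives. At an unadjusted p under 0.05, 8 of the 27 were higher, and DESeq2 called 1 of the 27 higher. Their log2 fold changes ran from -1.56 to 1.84 with a median of 0.07, beside 0.01 over all genes. The lists were drawn up with earlier results of these data known.

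Among plastins, Pls3 had 77.33 and 107.02 TPM in d2-FVFn and 73.89 and 114.07 TPM in d2-FVFp, a log2 fold change of -0.02 ± 0.23 (SE) with an adjusted p of 0.965 in edgeR. The other plastin, Pls1, differed by 0.65 ± 0.15 on the log2 scale (adjusted p = 0.0288), below the threshold of size. Among glycogen phosphorylases, Pygb, the brain form, differed by 0.24 ± 0.16 (adjusted p = 0.332). Emp1 came nearest to a call among relatives of Emp2, at 1.84 ± 0.53 with an adjusted p of 0.0551. The pair called lower were the secreted phospholipases Pla2g1b, at -1.56 ± 0.17 (adjusted p = 0.00296), and Pla2g10, at -1.03 ± 0.19 (adjusted p = 0.0142), both in the wider family of Pla2g7. For Phlda1 the relatives were already far more abundant: Phlda2 had 375.75 and 359.50 TPM in d2-FVFn and 347.97 and 339.46 TPM in d2-FVFp.

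Of the 24 other listed genes of the Ly6 family, to which Psca belongs, 11 were tested and 3 were called higher, where 6.96% of all genes were. The median log2 fold change of the 11 was 1.26. Ly6a, the stem cell antigen Sca-1, rose from 0.50 and 1.04 TPM to 17.34 and 19.03 TPM (log2 fold change 4.46 ± 0.42, adjusted p = 0.00196). Plaur, the urokinase receptor, rose by 2.19 ± 0.34 (adjusted p = 0.00834) and Lypd6b by 2.48 ± 0.41 (adjusted p = 0.0101). These 3 proteins are carried on the cell surface by a lipid anchor, as Psca is.

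**Figure D2:**
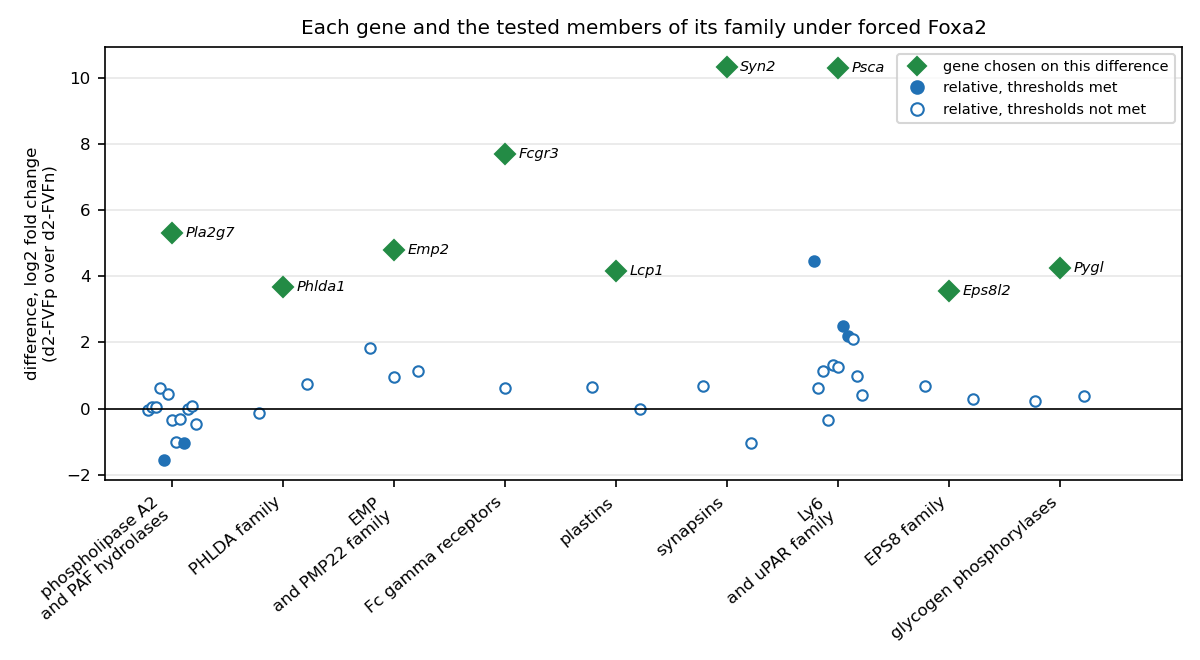
Log2 fold change of d2-FVFp over d2-FVFn for 9 of the genes (diamonds, chosen on this difference and not tested) and for the tested relatives in each family (circles, filled where edgeR called them). Every diamond lies above all circles of its family, and the filled circles above 0 are Ly6a, Plaur and Lypd6b; the heights of Syn2 and Psca, which are at 0 in d2-FVFn, depend on the small count that the fit adds.

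Fcgr3 and Lcp1 are used as markers of blood cells, so 18 leukocyte and macrophage genes were looked at beside them, of which 17 are in the tables. In d2-FVFp 6 of the 17 were at 0 in both libraries, among them Csf1r, the receptor that macrophages depend on, and Tyrobp. Ptprc, the CD45 antigen of all leukocytes, had 0.10 and 0.15 TPM in d2-FVFp and 0.16 and 0.15 TPM in d2-FVFn. Fcer1g, the chain that Fcgr3 needs to reach the cell surface in leukocytes, was at 0 and 0.37 TPM in d2-FVFp. Of the other Fc gamma receptors, Fcgr1 was at 0 in the 4 doxycycline libraries, Fcgr4 at 0.11 and 0 TPM in d2-FVFp and Fcgr2b at 0.34 and 0.49 TPM. Fcgr3 and Fcgr2b share sequence, and both had fractional expected counts in 12 of 14 libraries, so a part of their reads was divided by RSEM.

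Summed TPM of the marker list was nevertheless higher in d2-FVFp (167.3 to 185.5) than in d2-FVFn (74.3 to 97.9). Of the 5 markers tested, 2 were called higher. Laptm5, a lysosomal membrane protein, had 49.49 and 29.43 TPM in d2-FVFn and 128.88 and 101.04 TPM in d2-FVFp (log2 fold change 1.49 ± 0.26, adjusted p = 0.0114). Cd14, the co-receptor for endotoxin, had 0.08 and 0.33 TPM in d2-FVFn and 8.22 and 14.12 TPM in d2-FVFp (5.62 ± 0.59, adjusted p = 0.00236). Being near 0 in d2-FVFn, Cd14 passed the filter on low counts through d2-FVFp, and its p-value is given as a description. Laptm5 made up most of the sum, and it was also expressed in d0con at 105.53 and 67.50 TPM.

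**Figure D3:**
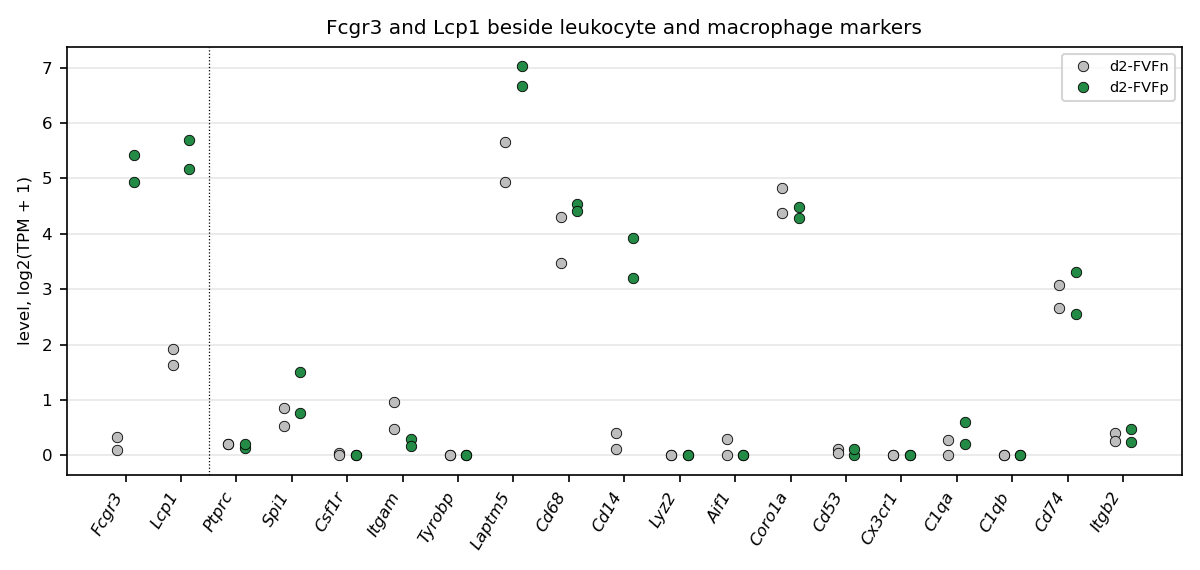
Level as log2(TPM + 1) of Fcgr3 and Lcp1 (left of the dotted line) and of the 17 leukocyte and macrophage markers in the tables, with 2 points for the libraries of d2-FVFn and 2 for those of d2-FVFp. Csf1r, Tyrobp, Lyz2, Aif1, Cx3cr1 and C1qb are at 0 in d2-FVFp, whereas Laptm5 and Cd14 are higher there than in d2-FVFn.

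Other genes of the pathways around the 10 were looked at as well. Over all genes edgeR called 6.96% higher and 1.47% lower in d2-FVFp. Of 25 other interferon response genes, the setting in which AW112010 is known, 17 were tested, 3 were called higher and 1 lower. The 3 were Cxcl10, a chemokine (5.29 ± 0.55, adjusted p = 0.00226), the nuclease gene Isg20 (6.11 ± 0.59, adjusted p = 0.00197) and Usp18, a brake on interferon signalling. Usp18 was at 0 in d2-FVFn and at 1.38 and 1.70 TPM in d2-FVFp. It passed the filter on low counts through d2-FVFp alone, so the filter is not independent of this comparison and its call is a description. Oasl2 fell by 1.24 on the log2 scale (SE 0.34, adjusted p = 0.047). Of 27 other genes of glycogen metabolism, 21 were tested and 2 called higher: Phka1, a subunit of the kinase that activates glycogen phosphorylase (1.11 ± 0.20, adjusted p = 0.0139), and Ppp1r3b, which targets a phosphatase to glycogen (1.96 ± 0.42, adjusted p = 0.0227). Of 17 other genes that respond to Erk signalling, as Phlda1 does, 16 were tested and 2 called higher, Egr1 (1.06 ± 0.26, adjusted p = 0.0342) and Fos (2.19 ± 0.31, adjusted p = 0.00595). Of 8 tested neuronal markers beside Syn2, 0 were called higher by edgeR or by DESeq2, with 1 higher and 4 lower at an unadjusted p under 0.05 and a median log2 fold change of -0.69. Nefl, a neurofilament gene, was called lower (-1.31 ± 0.23, adjusted p = 0.0124). Of 12 epithelial markers tested 4 were called higher, the keratins Krt7, Krt8 and Krt18 and the claudin Cldn4, by 1.83 to 3.82 on the log2 scale, and the median of the 12 was 0.61. Grhl2, a transcription factor of epithelia, was called lower (-2.07 ± 0.19, adjusted p = 0.00184).

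The second question was whether the 10 genes also change when Foxa2 is switched on in its normal setting, during endoderm differentiation, and whether that needs Foxa2. In the 10 libraries of day 0 and day 3, 7 of the 10 genes passed the filter of 1 CPM in 2 libraries, Fcgr3 only through its d3 libraries. AW112010, Syn2 and Psca did not pass. From d0con to d3con edgeR called 4 of the 7 higher (Lcp1, Pygl, Fcgr3 and Emp2) and 1 lower (Pla2g7). Of all tested genes 20.6% were called higher and 14.6% lower. Fcgr3 is counted here although it entered the fit through d3 libraries alone. It was also called higher with no filter. From d0ko to d3ko 1 was called higher (Pygl), where 11.6% of all genes were, and 1 lower (Pla2g7), where 5.72% were. Between d3ko and d3con 1 was called lower (Lcp1), where 3.51% of all genes were, and 0 higher, where 4.75% were. None of the 7 genes was called higher by DESeq2 or had a higher level at an unadjusted p under 0.05 in d3ko. By library values, with the 3 low genes included, 6 of the 10 had all d3con above all d0con libraries, and 2 had them below. Of genes with a mean of at least 1 TPM in either group, a cut that Syn2 and Psca do not meet, 45.4% lay above and 29.2% below. In ko cells 2 of the 10 had all d3 above all d0 libraries, as 36% of genes past the same cut did, and 1 below, as 22.2% did.

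Lcp1 was the gene called both higher in d3con than in d0con and lower in d3ko than in d3con. It had 0.70 and 0.91 TPM in d0con and 28.48, 7.98 and 22.08 TPM in d3con, a log2 fold change of 4.43 ± 0.93 (SE) with an adjusted p of 0.0042. It had 0.82 and 2.79 TPM in d0ko and 2.19, 2.61 and 0.46 TPM in d3ko. All 3 d3ko libraries lay below all 3 d3con libraries, and the difference was -3.50 ± 0.74 on the log2 scale (adjusted p = 0.0216). Replicate 2 of d3con was the lowest of its group, and d3ko overlapped with d0ko (-0.20 ± 0.77, adjusted p = 0.862). The call between d3ko and d3con was lost without replicate 1 or replicate 3 of d3con or without replicate 1 of d3ko, with adjusted p-values of 0.0764, 0.0783 and 0.063, in a fit of only these groups (0.0652) and without both 75-base libraries (0.177). The size of the difference stayed between -3.93 and -3.03 on the log2 scale over all alternatives. Mean Lcp1 in d3con was 45.7% of that in d2-FVFp. Summed TPM of the 17 leukocyte and macrophage markers in the tables was 23.9 to 29.1 in d3con, 43.6 to 132.2 in d3ko and 95.2 to 151.8 in d0con. Laptm5 made up most of the sum in d0con. Of the 7 markers tested in d3con over d0con, edgeR called 0 higher and 4 lower, and 3 were not called. Over all genes it called 20.6% higher and 14.6% lower. Ptprc was at 0.05, 0 and 0 TPM in d3con.

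Pls3, a relative of Lcp1, changed in the same direction as Lcp1 at day 3. Pls3 had 25.18 and 34.88 TPM in d0con, 256.45, 147.96 and 323.09 TPM in d3con and 44.91, 63.55 and 52.00 TPM in d3ko. It rose by 2.81 ± 0.33 from d0con to d3con (adjusted p = 0.000382) and was lower in d3ko than in d3con by 2.19 (-2.19 ± 0.28, adjusted p = 0.00726). At day 3 Lcp1 and Pls3 were thus both higher in con than in ko cells, whereas under forced Foxa2 the difference in Pls3 was smaller than its error.

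Pygl rose with and without Foxa2. It had 0.46 and 1.55 TPM in d0con, 12.17, 13.54 and 21.41 TPM in d3con, 1.45 and 1.87 TPM in d0ko and 6.59, 15.90 and 7.09 TPM in d3ko. All d3 libraries lay above all d0 libraries, and the log2 fold change was 3.75 ± 0.61 in con cells (adjusted p = 0.00129) and 2.39 ± 0.56 in ko cells (adjusted p = 0.0137). The d3ko and d3con libraries overlapped, at -0.67 ± 0.45 (adjusted p = 0.37). The rise in ko cells lost its call without either d0ko library, at adjusted p-values of 0.115 and 0.0784. Pygl was also the gene for which d3con cells, which express Foxa2, reached the forced level, as mean TPM in d3con was 101% of that in d2-FVFp. Mean Pygl in d3ko was 0.628 times that in d3con. Other genes of glycogen metabolism moved over time as well. Of the 22 tested, 10 were called higher and 2 lower in d3con over d0con, where 20.6% and 14.6% of all genes were. In d3ko over d0ko 5 were called higher and 0 lower, where 11.6% and 5.72% of all genes were. In d3ko over d3con 1 was called higher and 0 lower, near the shares over all genes of 4.75% and 3.51%. Ppp1r3b, for one, had 0.23 and 0.73 TPM in d0con and 13.88, 22.30 and 16.67 TPM in d3con.

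Fcgr3 and Emp2 rose in con cells by amounts that depended on single libraries. Fcgr3 had 0.41 and 0.55 TPM in d0con and 8.17, 1.73 and 3.67 TPM in d3con. The ratio of CPM was 9.20 with a counting interval of 5.36 to 17.1. The log2 fold change was 3.01 ± 0.94 (adjusted p = 0.0245). Fcgr3 passed the filter on low counts only through d3con and d3ko libraries. The filter is thus not independent of this comparison, and the p-value is given as a description. With no filter the log2 fold change of Fcgr3 was 3.03 ± 0.91 (adjusted p = 0.0213). In d0ko it had 0.99 and 0.26 TPM and in d3ko 2.0, 0.76 and 2.33 TPM, which overlapped with both d0ko and d3con. Its call was lost without either d0con library or without replicate 1 of d3con (adjusted p = 0.142, 0.0967 and 0.0672). Emp2 had 1.59 and 1.81 TPM in d0con and 4.93, 3.79 and 6.83 TPM in d3con (1.40 ± 0.39, adjusted p = 0.015), with its call lost without either d0con library (0.0996 and 0.0703). In ko cells Emp2 went from 2.27 and 1.92 TPM to 4.77, 2.93 and 5.98 TPM, which was 0.96 ± 0.38 on the log2 scale (adjusted p = 0.0849; 1.21 ± 0.33, adjusted p = 0.0243 and called higher, without d3ko replicate 2), and d3ko differed from d3con by -0.18 ± 0.33 (adjusted p = 0.764). In d3con both genes stayed far below d2-FVFp, Fcgr3 at 12.6% and Emp2 at 9.37% of its mean TPM.

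Pla2g7 moved against its direction under forced Foxa2. It had 40.70 and 32.43 TPM in d0con and 1.35, 1.99 and 2.27 TPM in d3con, and it fell by 4.50 on the log2 scale (SE 0.30, adjusted p = 7.18e-05). The fall was there without Foxa2, from 19.00 and 31.22 TPM in d0ko to 2.27, 3.19 and 2.65 TPM in d3ko (-3.38 ± 0.28, adjusted p = 0.000521). Levels of Pla2g7 in d3con were 1.47% of those in d2-FVFp. The Venus-negative d2 cells, at 3.36 and 2.88 TPM, stood nearer to the d3 cells than to the d0 cells, although both d0 and d2 cells are embryonic stem cells; the lines, media and substrates of these groups differ.

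Phlda1 and Eps8l2 did not pass the test in any of these comparisons. Phlda1 had 39.86, 9.54 and 17.22 TPM in d3con and 59.58, 10.30 and 14.18 TPM in d3ko, against 31.38 and 22.91 TPM in d0con and 26.74 and 24.95 TPM in d0ko. In both d3 groups the 75-base library was the highest. Without these 2 libraries Phlda1 was called lower in d3con than in d0con (-1.23 ± 0.33, adjusted p = 0.0238) and in d3ko than in d0ko (-1.24 ± 0.33, adjusted p = 0.0399), and read length cannot be told apart from the other ways in which these libraries differ. Eps8l2 had 15.77 and 20.44 TPM in d0con, 19.65, 12.88 and 20.17 TPM in d3con, 21.84 and 37.49 TPM in d0ko and 22.88, 9.1 and 29.23 TPM in d3ko. Its groups overlapped, and d3con differed from d0con by -0.24 ± 0.45 (adjusted p = 0.669).

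**Figure D4:**
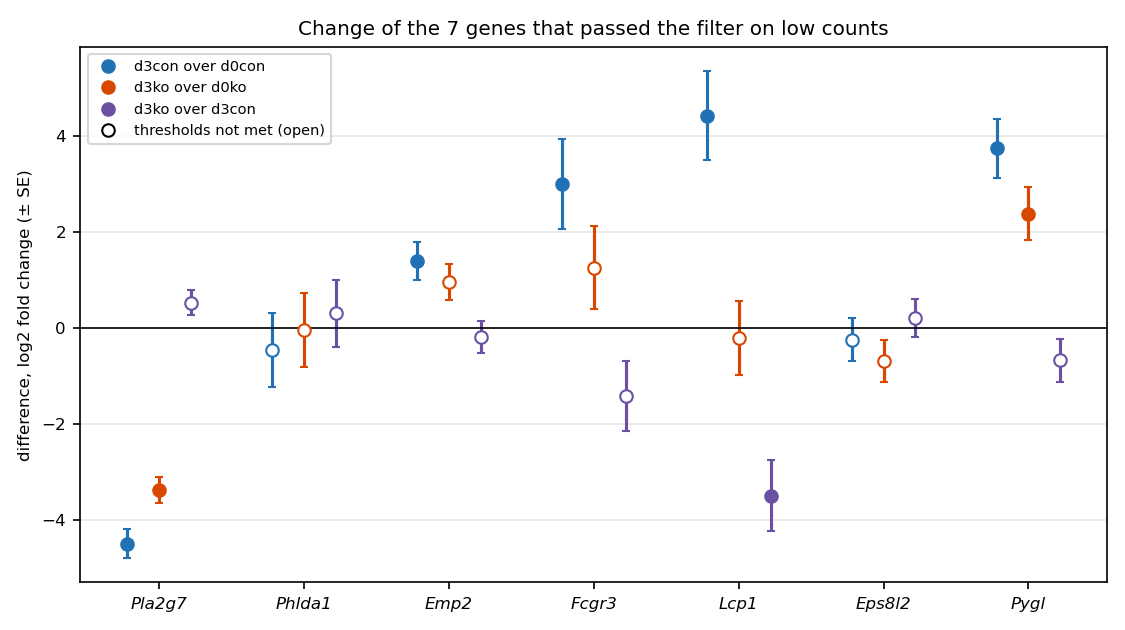
Log2 fold change (vertical axis, with bars of 1 SE) of the 7 genes that passed the filter on low counts, in 3 comparisons of the day 0 and day 3 libraries; filled points were called by edgeR. Lcp1 is the gene with a filled point in d3ko over d3con, Pygl and Pla2g7 have filled points in both genotypes over time, and Phlda1 and Eps8l2 have none.

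AW112010, Syn2 and Psca were near the limit of detection outside d2-FVFp. AW112010 was at 0 in all 4 day 0 libraries, at 2.59, 1.41 and 0.97 TPM in d3con and at 0, 0.52 and 0.27 TPM in d3ko. Against the floor of 3 counts in each d0con library its mean in d3con was at least 4.42-fold higher, and the ratio of CPM of d3con to d3ko, 42 against 7 counts, was 5.76 with an exact 95% interval of 2.56 to 15.2. Syn2 showed the same order. It was at 0 in all 4 day 0 libraries, at 0.41, 0.63 and 0.54 TPM in d3con and at 0, 0.18 and 0 TPM in d3ko. Its mean in d3con was at least 6.87-fold above the floor in d0con, and the ratio of d3con to d3ko, 64 against 6 counts, was 10.2 with an interval of 4.45 to 28.9. For both genes all d3con libraries lay above all d3ko libraries. This held for 12.6% of genes with a mean of at least 1 TPM in either group, a cut that Syn2 and Psca do not meet. Of the 10 genes 3 did so, with Lcp1, and for 1, Psca, d3ko lay above d3con, as for 11.2% of genes past that cut. For AW112010 and Syn2 an exact two-sided permutation test on log2(TPM + 1) gave p = 0.1, the smallest p that 3 against 3 libraries allow. In d3con over d0con the exact permutation test gave p = 0.2, the smallest for 3 against 2. With no filter edgeR called AW112010 (adjusted p = 0.0183) and Syn2 (adjusted p = 0.0228) higher in d3con than in d0con and neither lower in d3ko than in d3con (adjusted p = 0.176 and 0.143).

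Psca ran the other way. It had 0.53 and 0.47 TPM in d0con, 0.52 and 0.38 TPM in d0ko, 0.11, 0 and 0 TPM in d3con and 0.55, 0.13 and 0.33 TPM in d3ko. These values rest on 0 to 6 counts per library. With no filter edgeR called it lower in d3con than in d0con (adjusted p = 0.0451), and the ratio of CPM of d3con to d3ko, 1 against 9 counts, was 0.107 with an interval of 0.00243 to 0.769. Mean Psca in d3con was 0.169% of that in d2-FVFp, the lowest share of the 10 genes.

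Genotype at day 0 made no difference that passed the test. In d0ko over d0con 0 of the 7 genes and 0% of all genes were called by edgeR in either direction, 0 of the 7 had an unadjusted p under 0.05, and DESeq2 called 0 of the 7. By library values 2 of the 10 genes had both d0ko libraries above both d0con libraries, and 1 had them below. Of genes with a mean of at least 1 TPM in either group, 28.5% lay above and 16.2% below. The interaction of genotype and day asks whether the change over 3 days differed between ko and con cells. For Lcp1 it was -4.63 ± 1.15 on the log2 scale with an adjusted p of 0.169 in edgeR, while DESeq2 gave -4.60 ± 1.07 with an adjusted p of 0.00143. Over its 16 alternatives the adjusted p of Lcp1 ran from 0.00143 to 0.613, and 2 of them called it. edgeR called 0 of the 7 genes and 0% of all genes in the interaction, with 2 of the 7 at an unadjusted p under 0.05 (Lcp1 and, at 1.12 ± 0.40, Pla2g7). A rise of Fcgr3, Emp2 or Pygl that differs between con and ko cells was therefore not shown.

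The groups were also ordered by mean level. For Lcp1 the order was d2-FVFp (42.7 ± 11.1 TPM, SD), d3con (19.5 ± 10.5), d2-FVFn (2.44 ± 0.48), d0ko (1.80 ± 1.39), d3ko (1.75 ± 1.14) and d0con (0.80 ± 0.15), and from d2-FVFn downwards neighbours in this order did not differ beyond their spread. For Pygl it was d3con (15.7 ± 4.99), d2-FVFp (15.6 ± 0.90), d3ko (9.86 ± 5.24), d0ko (1.66 ± 0.30), d0con (1.005 ± 0.77) and d2-FVFn (0.79 ± 0.16), with the first 3 overlapping. The other 9 genes had both d2-FVFp libraries above all d3con libraries. Different lines, media and days separate d2-FVFp from d3con, and these levels are set side by side without a test.

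Over the 14 libraries the genes with the most similar pattern, by Pearson's r of log2(TPM + 1) among 11101 genes with a mean of at least 5 TPM in a group, were Shh and AW112010 for Syn2 (r = 0.996 and 0.991), Syn2 and Shh for AW112010 (0.991 and 0.987), and Fgb and AU040972 for Psca (0.984 and 0.983). For Lcp1 they were Kremen1 (0.987) and Tbc1d2b (0.968). Emp2 and Fcgr3 were among the closest to each other (0.959), beside Plat, the gene of tissue plasminogen activator, for Emp2 (0.966) and Nab2 for Fcgr3 (0.942). Pla2g7 was closest to Pqlc1 (0.968) and Srp9 (0.938), Eps8l2 to Fam102a (0.971) and Nptn (0.964), Pygl to Pdlim4 (0.964) and Tspan3 (0.958), and Phlda1 to 1810011O10Rik (0.864) and Vasp (0.852). These values share libraries and depth and rest largely on the d2-FVFp libraries. Shh, which encodes the Sonic hedgehog signal, was highest in d2-FVFp and next in d3con, as Syn2 was. It was at 0 in d0con, d0ko and d3ko, at 0.76, 1.46 and 0.69 TPM in d3con, at 0 and 0.04 TPM in d2-FVFn and at 15.50 and 16.09 TPM in d2-FVFp. Fgb, the fibrinogen beta chain of liver and visceral endoderm, was likewise at 0 in d2-FVFn and at 97.15 and 207.87 TPM in d2-FVFp, but at 0, 0.06 and 0 TPM in d3con.

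The genes lie on 10 different chromosomes, so none is a neighbour of another. Pla2g7 is at chr17:43567994-43612202, Phlda1 at chr10:111506286-111508649 and Psca at chr15:74714839-74717065 on GRCm38. Of 24 genes that overlap with one of them or lie nearest on either side, 9 were tested in the doxycycline series. Of these, 3 were called higher in d2-FVFp (Timp4, B230206H07Rik and Tekt5), where 6.96% of all genes were. Timp4, an inhibitor of metalloproteases, lies within Syn2 (chr6:115134902-115282626, GRCm38) on the opposite strand, and it had 0.25 and 0.83 TPM in d2-FVFn and 6.67 and 7.31 TPM in d2-FVFp (3.58 ± 0.53, adjusted p = 0.00715). B230206H07Rik overlaps with Eps8l2 (chr7:141338911-141363020) on the opposite strand and had 1.33 and 1.63 TPM in d2-FVFp. The noncoding gene 1700071M16Rik overlaps with Pla2g7 on the opposite strand and had 1.30 and 1.08 TPM in d2-FVFp. Whether reads were counted by strand is not given in the sources used here, so reads of these overlapping genes cannot be told apart with certainty. Tekt5, 44.0 kb from Emp2 (chr16:10281749-10313968), rose by 3.11 ± 0.47 (adjusted p = 0.0074). Near Fcgr3 (chr1:171051169-171065915), the gene 1700009P17Rik, 48.0 kb away, had 8.95, 17.21 and 3.83 TPM in d3con and 0.78, 2.57 and 1.88 TPM in d3ko (-2.52 ± 0.64, adjusted p = 0.0387), but in the doxycycline series it did not pass the test (0.82 ± 0.46, adjusted p = 0.259). Genes adjoining Lcp1 (chr14:75131105-75230842), AW112010 (chr19:11047612-11050566) and Pygl (chr12:70190815-70227683) had mean levels of at most 0.18 TPM in every group.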

How the data were processed

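Low-input RNA sequencing libraries (SMART-Seq v4, single-end) of 14 samples were analysed. The authors aligned the reads to mm10 with STAR and quantified each library with RSEM, whose versions are not given in the sources used here. The deposited expected counts are RSEM's unscaled estimates per gene, in which a read that matches several genes is divided. The deposited TPM values were scaled by the authors for gene length and library total. The deposited effective lengths were used to read off the read length.

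Groups and replicate numbers came from the sample titles. The 10 genes and all gene lists were chosen with earlier results of these data known. Expected counts were rounded, and genes with at least 1 CPM in at least 2 libraries of a fit were kept. In the doxycycline fit a gene near 0 in d2-FVFn passes this filter only through d2-FVFp, so its p-value there is a description. After TMM scaling, the quasi-likelihood test of edgeR 4.0.16 was run in R 4.3.3, with Benjamini-Hochberg adjustment over all genes tested. The d0con, d0ko, d3con and d3ko libraries (10) were fitted together, and the 4 doxycycline libraries apart. Calls needed a log2 fold change beyond 1 in either direction with an adjusted p-value under 0.05, and the standard error is the size of the log2 fold change divided by the square root of F. DESeq2 1.42.0, other scaling and filters, a replicate or clone block and leaving out each library were alternatives. The edgeR fit was tested on simulated data. The study calls the d0 and d3 replicates biological. How the doxycycline replicates were obtained is not given in the sources used here, so p-values there measure the spread between these libraries, which may be technical.

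The genes named were the 10, Foxa2, their relatives, their nearest annotated genes, and the 2 genes with the most similar pattern. Positions and promoters are from RefSeq (build GRCm38, equivalent to mm10); 99.2% of the 24054 symbols had a match. Phlda1 and Psca have no promoter printed.

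By the study's sample list and the deposited library names, the d0 and d3 libraries numbered 1 of a genotype come from one clone and those numbered 2 from its other clone, so these numbers pair d0 with d3. The correlation of their deviations from the group means was 0.03 and 0 for con and -0.02 and 0.06 for ko. Between con and ko, and in the doxycycline series, the sources used here state no pairing, though d3con 1 and d3ko 1 share 75-base reads, and these samples were not treated as paired. Intervals and floors of 3 counts cover counting error only.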

Additional observations from a re-analysis of the deposited data

How the results depend on the processing

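Of the comparisons of day 0 and day 3, d3con over d0con gave 5 called genes, 8 with no filter, where AW112010 and Syn2 were added as higher and Psca as lower, and 3 to 5 when a library was left out. For d3ko over d3con the 1 called gene became 0 without the 75-base libraries and 0 in a fit of only the 2 groups, and 0 to 1 with a library left out. For d3ko over d0ko it was 1 to 3 with a library left out against 2, where Emp2 was added without d3ko replicate 2, and 3 without the 75-base libraries, where Phlda1 was added as lower. The interaction gave 0, 1 with DESeq2 and 0 to 1 with a library left out. In d2-FVFp over d2-FVFn 10 genes exceeded a log2 fold change of 1, and 6 to 10 when a library was left out, because with a single d2-FVFp library 4 genes fail the filter on low counts.

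Pairing by a replicate block or a clone block changed no call of these genes: 5, 1, 2 and 0 were called with the replicate block in d3con over d0con, d3ko over d3con, d3ko over d0ko and d0ko over d0con, 0 in the interaction, and 10 stayed above a log2 fold change of 1 in d2-FVFp over d2-FVFn. Over all genes the block changed the calls from 660 higher and 488 lower to 415 and 401 in d3ko over d3con, where deviations of same-numbered libraries correlated at 0.5, 0.29 and -0.01, and from 901 higher and 190 lower to 1172 and 325 in the doxycycline series, where they correlated at 0.22 and 0.22. For d0ko over d0con they correlated at 0.1 and 0.1.

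Directions that turned belonged to differences that were not called. For Phlda1 d3ko over d3con ranged from -0.91 to 1.1, with -0.12 without the 75-base libraries, -0.06 without d3con replicate 2 and -0.91 without d3ko replicate 1. In d3ko over d0ko it ranged from -1.26 to 0.36 with a library left out and was 0.03, 0.36 and 0.28 without d0ko replicate 1, d3ko replicate 2 and d3ko replicate 3, in d0ko over d0con 0.13 and -0.32 without d0con replicate 1 and 2, and in the interaction -0.8 to 1.21 with a library left out, with -0.8 without d3ko replicate 1 and -0.01 without the 75-base libraries. For Emp2 d3ko over d3con ranged from -0.42 to 0.07, with 0.02 and 0.07 without d3con replicate 3 and d3ko replicate 2, and for Eps8l2 from -0.13 without d3ko replicate 3 to 0.57. For Lcp1 d3ko over d0ko was 0.15 with the clone block, ranged from -0.82 to 0.9 with a library left out, and was 0.9 without d0ko replicate 2 and 0.27 without d3ko replicate 3. For Fcgr3 d0ko over d0con was -0.06 with the replicate block and -1.08 and 1.01 without d0ko replicate 1 and 2. The cause was not tested. Whole-table calls in d3ko over d3con fell to 0 higher and 1 lower without the 75-base libraries and to 7 higher and 60 lower in a fit of only those groups. The interaction had 301 higher and 265 lower calls over all genes with DESeq2 against 0 with edgeR, and 1840 genes had an unadjusted p under 0.05 in edgeR.

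With 2 or 3 libraries a group, the calls of single genes rest on the spread shared over all groups. AW112010, Syn2 and Psca reach 1 CPM in 0 or 1 of the 10 day 0 and day 3 libraries, so only large differences in them were detectable at this depth.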

Other observations

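In d2-FVFp over d2-FVFn edgeR called 6.96% of all genes higher, and some markers of other embryonic lineages were among them. Of 10 primitive endoderm genes 8 were tested and 5 were called higher by edgeR in d2-FVFp over d2-FVFn: Gata6 (log2 fold change 5.19 ± 0.44, SE, adjusted p = 0.00148), Pdgfra (3.55 ± 0.73, adjusted p = 0.0199), Col4a1 (3.19 ± 0.16, adjusted p = 0.000269), Col4a2 (3.03 ± 0.20, adjusted p = 0.00082) and Serpinh1 (1.60 ± 0.19, adjusted p = 0.00353). Lama1 (-0.83 ± 0.27, adjusted p = 0.0739), Dab2 (-0.28 ± 0.32, adjusted p = 0.584) and Sparc (0.13 ± 0.19, adjusted p = 0.668) were not called. Summed TPM of all 10 was 501.9 to 588.7 in d2-FVFp against 243.8 to 286.7 in d2-FVFn. Of 12 definitive endoderm genes 6 were tested and 4 were called higher: Cer1 (4.16 ± 0.84, adjusted p = 0.0183), Lhx1 (3.13 ± 0.67, adjusted p = 0.0223), Gata4 (2.59 ± 0.30, adjusted p = 0.00338) and Trh (1.62 ± 0.19, adjusted p = 0.00338). Foxa3 (0.04 ± 0.22, adjusted p = 0.906) and Hhex (0.27 ± 0.35, adjusted p = 0.632) were not called. In d2-FVFp 6 of the 12 had a mean under 1 TPM. Of 10 trophoblast genes 8 were tested and 3 called higher, Cdx2 (6.10 ± 0.66, adjusted p = 0.00262), Eomes (1.63 ± 0.33, adjusted p = 0.0194) and Krt7. Of 10 pluripotency genes 0 were called lower by edgeR or by DESeq2, where edgeR called 1.47% of all genes lower. Of the 10, 3 were lower at an unadjusted p under 0.05, and 2 were called higher, Klf4 and Tbx3. The median log2 fold change of the 10 was -0.4, beside 0.01 over all genes. Nanog (-0.68 ± 0.15, adjusted p = 0.0276) and Pou5f1 (-0.48 ± 0.12, adjusted p = 0.0386) were lower by less than the threshold of size. Summed TPM of the 10 was 4305 to 5871 in d2-FVFp against 6465 to 8023 in d2-FVFn. In d3con over d0con 9 of the 10 pluripotency genes were called lower.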
